A study of Mus musculus with 6 samples.

Results

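Smooth muscle and pericyte contractile genes were followed across 6 cultures of mouse embryo fibroblasts, primary fibroblasts grown out of embryos. The 10 genes are Acta2, Tagln, Cnn1, Myh11, Rgs5, Actg2, Des, Myl9, Cald1 and Pdgfrb, and they were picked by name: every probe set whose platform annotation gives exactly 1 gene symbol, and that symbol among the 10, was taken. This gave 19 probe sets out of 20380 with 1 symbol, and 10 genes out of 12393. Each line was measured on 1 Affymetrix array. The 3 chromosomally unstable lines were a BubR1 H/H line numbered 9515, a BubR1 H/H line numbered 9938 and a CDC20 AAA/AAA line numbered 10074; the H/H alleles are hypomorphic for the spindle checkpoint protein BubR1, and the labels give the CDC20 allele, in the activator of the anaphase-promoting complex, as hypomorphic too. The 3 stable lines carried wild-type alleles of both genes: BubR1 +/+ in numbers 9515 and 9938 and CDC20 +/+ in number 10074. Unstable and stable lines of the same number are called a pair. All lines were grown for 2 passages under the same treatment conditions, without an added drug or factor named in the labels. A group is thus 3 cultures, of which the BubR1 genotype has 2 and the CDC20 genotype 1, and the labels do not state whether each culture is a separate embryo. The p-values then set each difference against the spread among these cultures, which may be technical.

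Contractile smooth muscle shortens when the heavy chain Myh11, switched on through the phosphorylated light chain Myl9, pulls on thin filaments of the actins Acta2 and Actg2. Calponin (Cnn1) and caldesmon (Cald1) bind those filaments and restrain the motor, transgelin (Tagln) crosslinks them, and desmin (Des) ties the contractile units into the cell. Pericytes, the mural cells of small vessels, share part of this set, are recruited through the receptor Pdgfrb, and carry Rgs5, which shortens signalling by G protein-coupled receptors. Most of these genes are driven by serum response factor, Srf, with myocardin or the related cofactors Mrtfa and Mrtfb, through the CArG box, a site of the letters CC, then 6 bases that are each A or T, then GG. Fibroblasts in culture are known to carry much of the same program when they become myofibroblasts.

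In these cultures the set did not move as a block. Myh11 and Rgs5 lay above every stable line in every unstable line, at 2.24-fold and 2.20-fold by group means, and Cnn1 and Actg2 were higher in each unstable line than in its partner by smaller amounts. Acta2, Tagln, Myl9, Cald1 and Pdgfrb differed by at most 0.11 on the log2 scale between the groups. Des was higher in both BubR1 H/H lines and lower in the CDC20 AAA/AAA line. No gene of the 10 passed the limma test over all genes, so all of these are values and not calls.

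Promoters are shown for 4 members, Acta2 and Myl9 because they hold CArG matches and Cnn1 and Rgs5 because they were among the members with larger differences. The sequences are from RefSeq on build GRCm38.p6, from 250 bases before to 50 after the annotated start, 5′ to 3′ on the gene's strand. Capitals mark a CArG box, either exact or with 1 of the 6 core bases being C or G; the pattern reads the same on both strands, and overlapping matches were counted. They come from chr19:34255324-34255623 on the minus strand for Acta2 and from the plus strand at chr2:156775214-156775513 for Myl9, chr9:22099003-22099302 for Cnn1 and chr1:169655251-169655550 for Rgs5.
Acta2: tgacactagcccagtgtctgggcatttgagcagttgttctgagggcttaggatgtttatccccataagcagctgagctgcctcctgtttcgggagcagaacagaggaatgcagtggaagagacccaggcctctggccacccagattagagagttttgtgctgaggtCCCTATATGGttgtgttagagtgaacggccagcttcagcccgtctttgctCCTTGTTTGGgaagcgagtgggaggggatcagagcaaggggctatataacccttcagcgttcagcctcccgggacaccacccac
Myl9: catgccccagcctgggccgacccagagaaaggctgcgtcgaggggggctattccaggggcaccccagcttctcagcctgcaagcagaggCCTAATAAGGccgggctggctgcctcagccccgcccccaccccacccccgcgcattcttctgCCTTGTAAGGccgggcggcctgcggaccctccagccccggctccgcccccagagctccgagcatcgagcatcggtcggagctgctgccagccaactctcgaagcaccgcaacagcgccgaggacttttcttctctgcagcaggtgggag
Cnn1: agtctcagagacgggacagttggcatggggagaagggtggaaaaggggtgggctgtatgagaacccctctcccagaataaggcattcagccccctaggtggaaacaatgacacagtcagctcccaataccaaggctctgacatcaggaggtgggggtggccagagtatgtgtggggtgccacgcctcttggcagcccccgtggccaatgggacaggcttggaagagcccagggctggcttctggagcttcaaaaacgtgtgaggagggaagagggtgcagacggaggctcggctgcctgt
Rgs5: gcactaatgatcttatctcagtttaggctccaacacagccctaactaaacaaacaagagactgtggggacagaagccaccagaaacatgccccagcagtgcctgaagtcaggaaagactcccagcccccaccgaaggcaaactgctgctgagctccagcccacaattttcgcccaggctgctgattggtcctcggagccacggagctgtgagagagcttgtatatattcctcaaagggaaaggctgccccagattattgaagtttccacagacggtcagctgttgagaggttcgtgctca

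The Acta2 promoter holds CCCTATATGG from 84 bases and CCTTGTTTGG from 34 bases before the start, each with 1 core mismatch. The Myl9 promoter holds the exact box CCTAATAAGG from 161 bases before the start and CCTTGTAAGG, with 1 core mismatch, from 99 bases before it. The Cnn1 and Rgs5 windows hold no match, and neither do those of Des and the 2 starts of Cald1; this says only that the letters are not in these windows. Among 7 promoters of 6 members, 1 held an exact box and 2 held a box with up to 1 mismatch, beside 1.63% and 9.98% of the 32851 promoters of the same length in the table. A match is a run of letters, and no binding was measured here. Tagln, Actg2, Myh11 and Pdgfrb had no entry that was used.

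As a check of the labels, Bub1b, the gene of BubR1, measured 6.15, 6.43 and 7.00 in unstable lines (pairs 9515, 9938 and 10074) against 7.81, 8.51 and 7.61 in their stable partners. The difference was -1.45 (SE 0.31; adjusted p = 0.999 by limma), and every unstable line was below every stable line. Only the BubR1 pairs 9515 and 9938, at -1.66 and -2.08, bear on the BubR1 label. The CDC20 pair 10074, at -0.62, does not check it. Cdc20, added after its values were seen, differed by -0.10, -0.81 and -0.81 in pairs 9515, 9938 and 10074. That was as much in the BubR1 pair 9938 as in the CDC20 pair, so its level does not check the CDC20 label. Precision is limited by having 6 arrays. Unless the pair number is named as a block, SEs and intervals of single genes come from fits without it. Differences between pairs then count in their error. Each gene was read from the probe set whose average level was greatest, and was tested where that probe set reached a log2 level of at least 4 on at least 3 arrays. All 10 members were tested among 8382 genes. Of 16 fibroblast markers tested 5 were higher and 11 lower, with 1 higher and 4 lower in all 3 pairs. Of the 16, 0 passed the test for a difference between the groups (S100a4 at -0.23, Col1a1 at -0.13, Fap at 0.24 and Twist1 at -0.14). The largest difference, named after its values were seen, was Dcn at 0.61 (SE 0.62). Dcn was at 1.39, 0.595 and -0.17 in pairs 9515, 9938 and 10074. The summed level of the 17 on the array lay at 16.14 to 16.35 in stable and 16.11 to 16.23 in unstable lines on the log2 scale. Of 10 endothelial markers on the array 7 reached the floor of 4 on no array, Pecam1 and Cdh5 among them. The summed level of the list lay at 10.13 to 10.67 in stable and 9.84 to 10.56 in unstable lines. Most of that sum was Flt1, which alone measured 10.03 to 10.60 in stable and 9.71 to 10.48 in unstable lines. Flt1 and Kdr, the 2 tested, were at -0.24 and 0.10. Epithelial markers were at the floor on no array for 7 of 11, Epcam and Cdh1 included, with summed levels of 7.93 to 8.33 and 7.74 to 8.61.

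**Figure D1:**
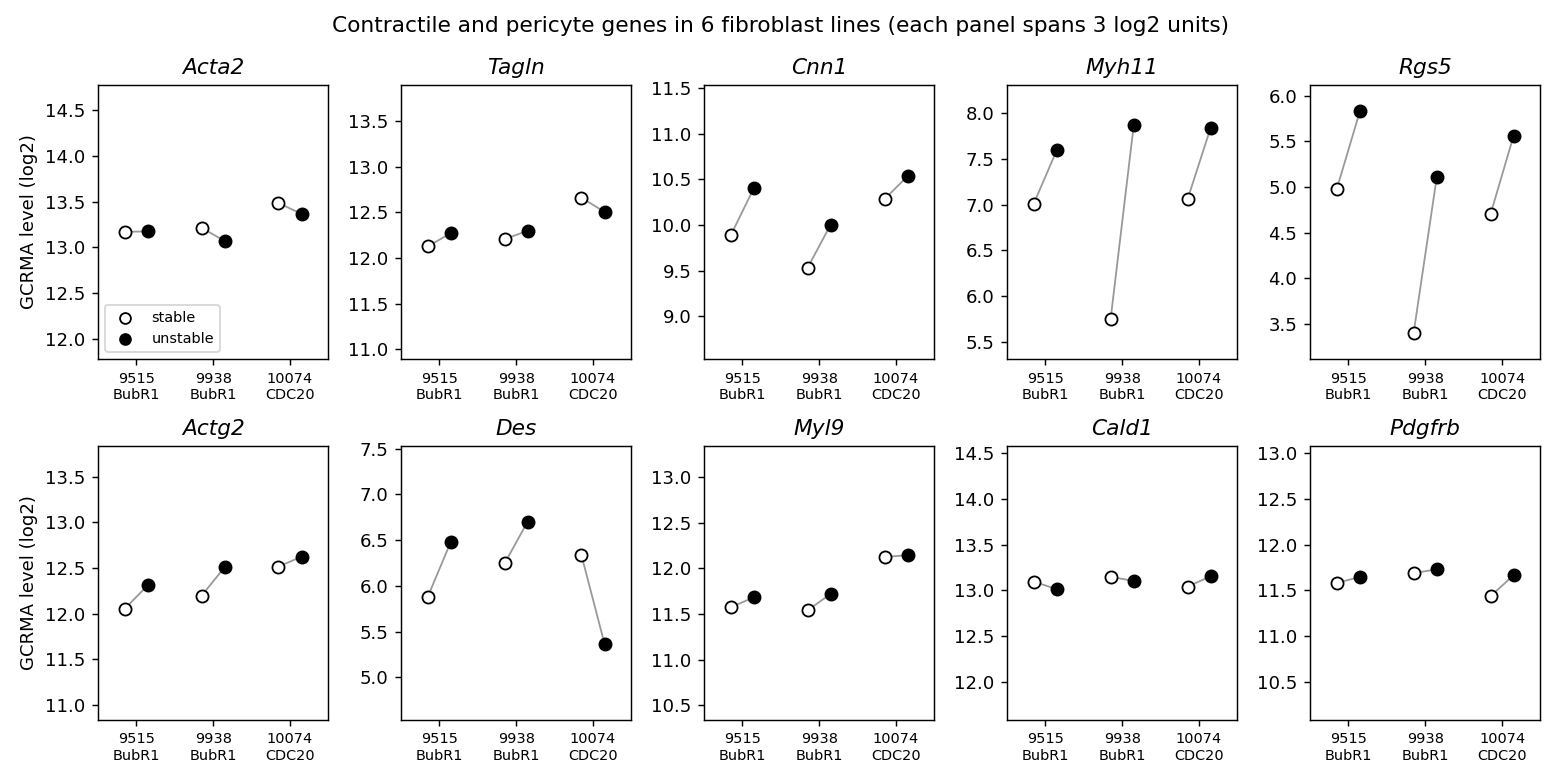
GCRMA level on the log2 scale of the 10 genes in each line (one panel a gene, each spanning 3 log2 units), with stable lines as open and unstable lines as filled circles and a grey line joining the lines of a pair. Myh11 and Rgs5 step up from the open to the filled circle in all 3 pairs, most in pair 9938, while Acta2, Tagln and Myl9 differ more between pairs than within them.

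Myh11, the smooth muscle myosin heavy chain, and Rgs5 had the 2 largest differences of the set, and their order turned with the lines left out. In pairs 9515, 9938 and 10074 the stable lines measured 7.01, 5.75 and 7.06, and their unstable partners 7.60, 7.87 and 7.84. The groups did not overlap, and the unstable lines lay close together while the stable line of pair 9938 stood more than 1 log2 unit below the other two. The stable group averaged 6.61 ± 0.74 (SD, n = 3) and the unstable group 7.77 ± 0.15 (SD, n = 3). The unstable line was higher by 0.59 on the log2 scale in pair 9515, by 2.12 in pair 9938, which is 4.33-fold, and by 0.78 in pair 10074, which is 1.72-fold. The mean difference of 1.16 (SE 0.36) on the log2 scale, with a 95% interval from 0.28 to 2.04, did not pass the test over all genes (adjusted p = 0.999 by limma). Without the stable line of pair 9938 the difference was 0.73, and without the whole pair it was 0.68. A second Myh11 probe set lay below the floor of 4 on all arrays, at 2.67 to 3.40, and differed by -0.06, 0.73 and 0.07 in pairs 9515, 9938 and 10074, so its difference exceeded 0.1 in pair 9938 alone. The mean of both Myh11 probe sets gave 0.70.

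Myl9, the regulatory light chain, measured 11.58, 11.54 and 12.13 in the stable lines of pairs 9515, 9938 and 10074 and 11.68, 11.72 and 12.14 in the unstable lines. Both lines of pair 10074 were the highest, and the difference inside each pair was small. The group difference was 0.10 (SE 0.21), with an interval from -0.41 to 0.61 (adjusted p = 0.999 by limma). The 2 myosin genes of the set therefore had unlike values: Myh11 differed mostly between unstable and stable lines and Myl9 mostly between pair numbers, as the shares of variation below show.

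Among the actins, Acta2 measured 13.17, 13.21 and 13.49 in the stable lines of pairs 9515, 9938 and 10074 and 13.18, 13.07 and 13.37 in the unstable lines. The lines of pair 10074 were again the highest of their groups. Its difference was -0.09 (SE 0.13), with an interval from -0.41 to 0.23. The suffix of this probe set (_s_at) means that its probes can match transcripts of more than 1 gene, so the near-identical actin transcripts may share its signal. A second Acta2 probe set at 6.17 to 6.88 gave pair differences of 0.14, 0.22 and -0.03, against 0.01, -0.14 and -0.12 for the first, so the direction of Acta2 was not settled between them. Actg2 measured 12.05, 12.20 and 12.52 in stable and 12.31, 12.51 and 12.62 in unstable lines of the same order. Every unstable line was above its partner, by 0.26, 0.31 and 0.11, but the groups overlapped because the stable line of pair 10074 was above both BubR1 H/H lines. The difference of 0.22 (SE 0.15) had an interval from -0.15 to 0.60 (adjusted p = 0.999 by limma), and leaving out a stable line gave 0.124 (pair 9515) to 0.355 (pair 10074).

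Of the thin filament binding proteins, Cnn1 measured 9.89, 9.53 and 10.28 in the stable lines of pairs 9515, 9938 and 10074 and 10.40, 10.00 and 10.53 in the unstable lines. Each unstable line was above its partner, by 0.52, 0.47 and 0.25, and pair 9938 was the lowest and pair 10074 the highest in both groups. Group levels were 9.90 ± 0.38 (SD, n = 3) and 10.31 ± 0.28 (SD, n = 3). The difference of 0.41 (SE 0.23), which is 1.33-fold, had an interval from -0.15 to 0.98 (adjusted p = 0.999 by limma). Without the stable line of pair 9938 it was 0.23.

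Tagln measured 12.13, 12.21 and 12.66 in stable and 12.27, 12.30 and 12.50 in unstable lines of pairs 9515, 9938 and 10074. It was slightly higher in the BubR1 H/H lines and slightly lower in the CDC20 AAA/AAA line than in their partners. The group difference was 0.03 (SE 0.17), with an interval from -0.38 to 0.43. Cald1, by its brightest probe set, measured 13.10, 13.15 and 13.04 in stable and 13.01, 13.10 and 13.15 in unstable lines. All 6 values lay between 13.01 and 13.15, and the difference was -0.005 (SE 0.09) with an interval from -0.22 to 0.21. The brightest Cald1 probe set also has the suffix _s_at, so its probes can match transcripts of more than 1 gene. The other 2 Cald1 probe sets differed by 0.17 (SE 0.15) and 0.03 (SE 0.18), and the signs of the 3 probe sets were not the same in any pair.

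Des, the intermediate filament protein of muscle, measured 5.88, 6.25 and 6.33 in the stable lines of pairs 9515, 9938 and 10074 and 6.48, 6.70 and 5.36 in the unstable lines. The BubR1 H/H lines were above all stable lines, and the CDC20 AAA/AAA line was below them all. The pair differences were 0.60, 0.46 and -0.97, which left a group difference of 0.03 (SE 0.36) with a wide interval, from -0.86 to 0.92. Its second probe set lay at 1.68 to 1.95, below the floor on all arrays. Des is also made by skeletal and heart muscle, and of 29 markers of those tissues on the array 20 reached the floor on no array, Myod1, Myog, Ckm and Mb among them. The summed level of that list lay at 9.51 to 10.28 in stable and 9.61 to 10.14 in unstable lines, and in pair 10074 it was 10.28 in the stable and 10.14 in the unstable line. Of its 7 tested genes 4 were higher and 3 lower over group means, with 4 higher and 1 lower in all 3 pairs and a median of 0.09, and 0 passed in limma. Cdh15, the M-cadherin gene, had the smallest unadjusted p, at -0.70 (SE 0.28; adjusted p = 0.999 by limma), and Acta1 was at 0.30, Myl4 at 0.18 and Tnnc1 at 0.09. The levels of Cdh15 lay around the floor, at 3.46 to 4.91. The other 2 lower genes, named after their values were seen, were the cardiac troponin gene Tnnt2 at -0.55 (SE 0.67) and Pax3 at -0.30 (SE 0.90). In pair 10074, where Des was at -0.97, Tnnt2 was at -1.18, Cdh15 at -0.97 and Acta1 at 0.74; in pairs 9515 and 9938, where Des was higher, Tnnt2 was at 0.17 and -0.65 and Cdh15 at -0.36 and -0.78. The part of muscle cells in the values of Des was not tested.

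Of the 2 pericyte genes, Rgs5 measured 4.98, 3.41 and 4.70 in the stable lines of pairs 9515, 9938 and 10074 and 5.83, 5.11 and 5.56 in the unstable lines. All unstable lines were above all stable lines, and the stable line of pair 9938 was the lowest and lay below the floor. The stable group averaged 4.36 ± 0.84 (SD, n = 3) and the unstable group 5.499 ± 0.37 (SD, n = 3). The pair differences were 0.85, 1.70 and 0.86, and the mean of 1.14 (SE 0.44) had an interval from 0.07 to 2.20 (adjusted p = 0.999 by limma). With the value below the floor set to 4, the difference in pair 9938 was 1.11 and the mean 0.94, and without the stable line of pair 9938 it was 0.66. The other 3 Rgs5 probe sets lay below the floor on all arrays, and each was higher in the unstable line of each pair, by 0.21 to 0.96. Among them is a probe set with the suffix _s_at, whose probes can match transcripts of more than 1 gene. Probe sets of a gene read the same RNA and are not replicates. Pdgfrb, which binds the growth factor PDGF-BB, measured 11.58, 11.69 and 11.44 in stable and 11.65, 11.73 and 11.67 in unstable lines. Its difference was 0.11 (SE 0.10), with an interval from -0.13 to 0.35; it was 0.171 when the stable line of pair 9938 was dropped, 0.045 when that of pair 10074 was, and 0.052 when both lines of pair 10074 were. Its second probe set differed by 0.05 (SE 0.16) with pair differences of 0.24, -0.02 and -0.07. In cultures measured in bulk, more cells of a type and more RNA per cell cannot be told apart.

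**Figure D2:**
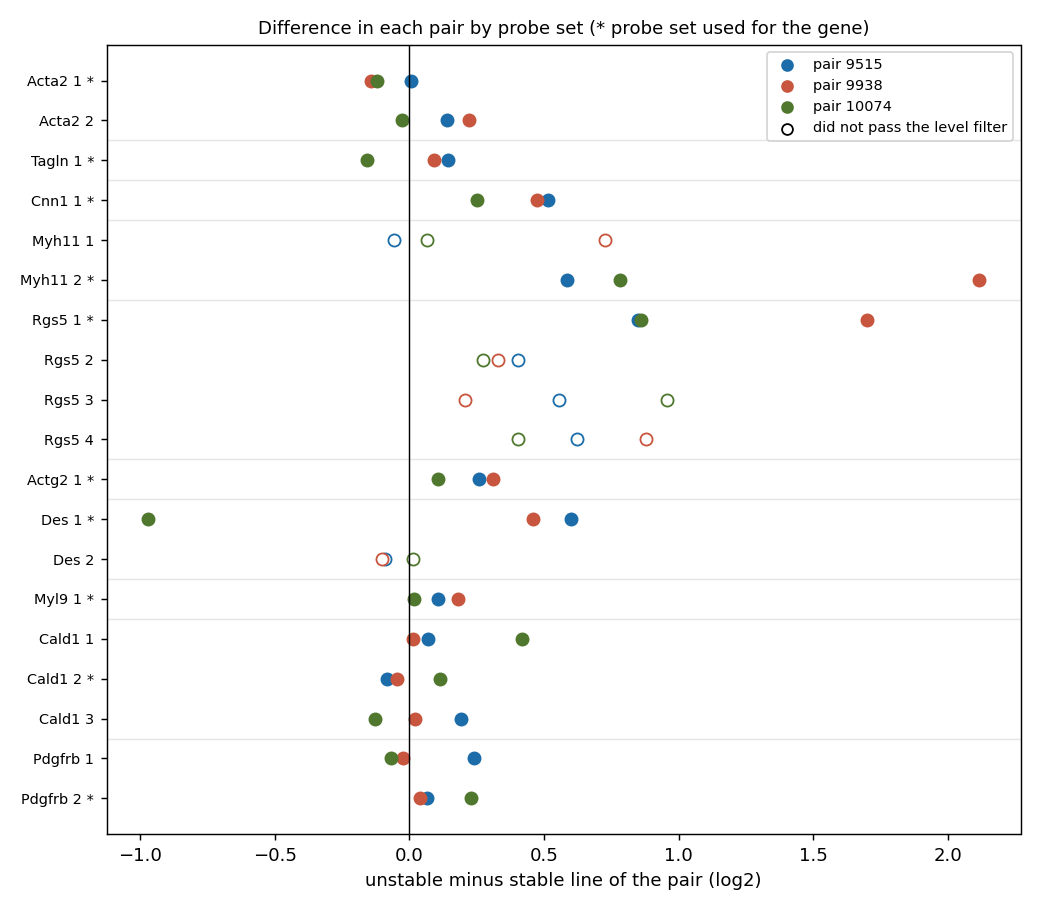
Difference between the unstable and the stable line of each pair on the log2 scale for all 19 probe sets of the 10 genes, numbered within a gene, with an asterisk at the probe set used for the gene; open circles are the 5 probe sets that did not pass the level filter. The 4 Rgs5 probe sets lie to the right of 0 in all pairs, and Des has the pair 10074 point at -0.97 and the other 2 at 0.46 and 0.60.

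The unstable against stable comparison asked whether these genes differ between chromosomally unstable and stable fibroblasts. At an adjusted p under 0.05, 0 of the 10 members and 0 of 8382 genes (0%) passed in limma. At an unadjusted p under 0.05 there were 2 members, Myh11 and Rgs5, and 4.28% of all genes (359). Over group means 8 members were higher and 2 lower, with a median difference of 0.11 beside -0.01 over all genes tested. The unstable line was higher for 9 of 10 members in pair 9515, 8 in pair 9938 and 7 in pair 10074, where 50.2%, 49.5% and 45.2% of all genes were higher. Higher in all 3 pairs were 6 members, Cnn1, Myh11, Rgs5, Actg2, Myl9 and Pdgfrb, beside 16.9% of all genes, and lower in all 3 pairs were 0 members, beside 19.3%. All unstable lines lay above all stable lines for 2 members, Myh11 and Rgs5, beside 3.54% of all genes, and below them for 0 members, beside 6.41%. The members were named because earlier results of these lines were known, so these counts describe the set and are not a test of it.

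With the pair number as a block, which removes the differences between pairs from the error, the SE fell from 0.21 to 0.08 for Myl9, from 0.23 to 0.09 for Cnn1 and from 0.44 to 0.20 for Rgs5, and for Cald1 it stayed at 0.09. The intervals ran from 0.17 to 0.66 for Cnn1, from 0.35 to 1.98 for Myh11, from 0.63 to 1.64 for Rgs5 and from -0.001 to 0.45 for Actg2. Members with an unadjusted p under 0.05 in limma were then 3, Cnn1, Myh11 and Rgs5, beside 12.2% of all genes (1019). Over all genes 0 members and 0 genes (0%) passed, and the adjusted p of Rgs5, 0.262 by limma with the block, was the smallest of the set. The intervals for Acta2, from -0.30 to 0.13, Tagln, from -0.23 to 0.28, and Cald1, from -0.23 to 0.22, give the sizes of difference that these 3 pairs allow. Over all 13589 probe sets with 1 symbol that passed the level filter, fitted one by one, 0 of the 14 member probe sets and 0% of all passed, and 2 member probe sets were among 566 with an unadjusted p under 0.05.

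**Figure D3:**
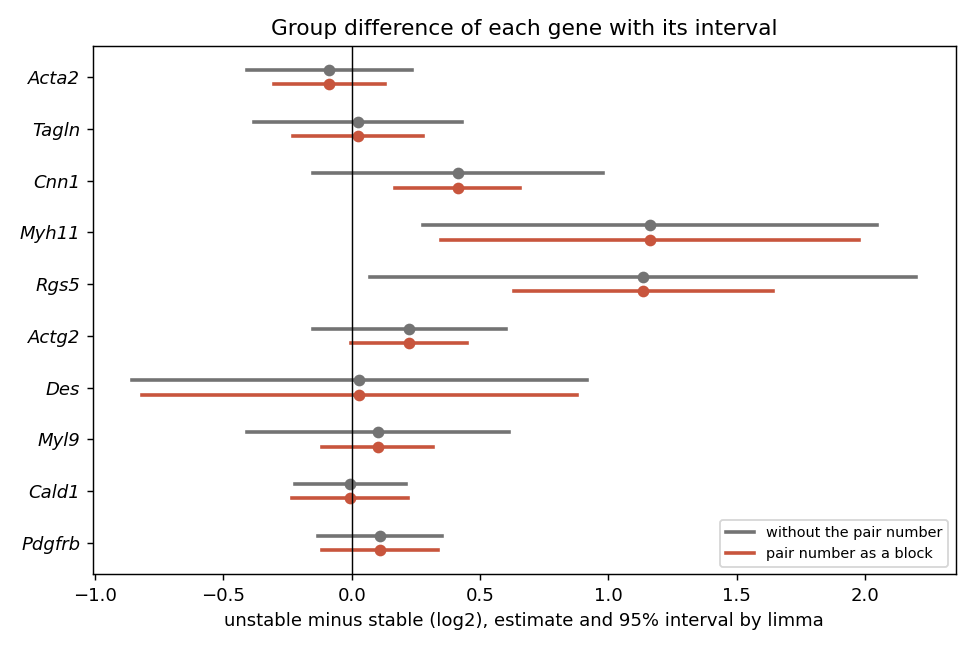
Unstable minus stable difference of each gene on the log2 scale with its 95% interval by limma, in grey for the fit without and in red for the fit with pair as a block. The block intervals of Cnn1, Myh11 and Rgs5 lie above 0 and that of Actg2 reaches to -0.001.

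The share of the variation that went with the pair number differed widely among the members. Of the sum of squares over the 6 lines, pair number took 93.9% for Myl9, 86.6% for Tagln and 84.7% for Acta2, where the median over all genes tested was 59.3%. For Cnn1 and Actg2 it took 60.0% and 63.4%, and the unstable or stable label took 37.1% and 31.9%. The label took the largest share for Myh11, at 63.9%, and Rgs5, at 53.5%, beside a median of 11.5% over all genes. For Des and Cald1, whose difference inside the pairs changed sign, 65.8% and 68.0% went with neither.

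Acta2, Tagln and Myl9, with the largest shares for pair number, were all highest in pair 10074. Mean levels of the 2 lines of pairs 9515, 9938 and 10074 were 13.17, 13.14 and 13.43 for Acta2, 12.20, 12.25 and 12.58 for Tagln and 11.63, 11.63 and 12.13 for Myl9. Actg2 and Cnn1 were also highest in pair 10074, at 12.18, 12.35 and 12.57 for Actg2 and 10.15, 9.77 and 10.41 for Cnn1. Rgs5 had 5.40, 4.26 and 5.13, and pair 9938 was the lowest for it as for Cnn1. In limma's test for differences among the 3 pair numbers 0 of the 10 members passed, beside 5.93% of all genes (497). At an unadjusted p under 0.05 there were 5 of the 10 members, beside 2194 of the 8382 genes tested. The adjusted p was 0.076 for Myl9, 0.078 for Cnn1 and 0.097 for Rgs5 by limma. With an intensity trend and a robust prior 4 of the 10 members passed, Acta2, Cnn1, Actg2 and Myl9, beside 953 of the 8382 genes tested. Which members passed changed with the line left out, but 1 pair number then had only 1 line. Without either line of pair 9515 the count over all genes dropped from 497 to 1. Pairs 9515 and 9938 share the BubR1 locus, so the differences between those pairs, such as that of Rgs5, lie within 1 locus. What sets pair 10074 apart cannot be told apart from its locus, since it is the 1 CDC20 pair, or from other traits that go with its number. The labels do not say what the numbers stand for.

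**Figure D4:**
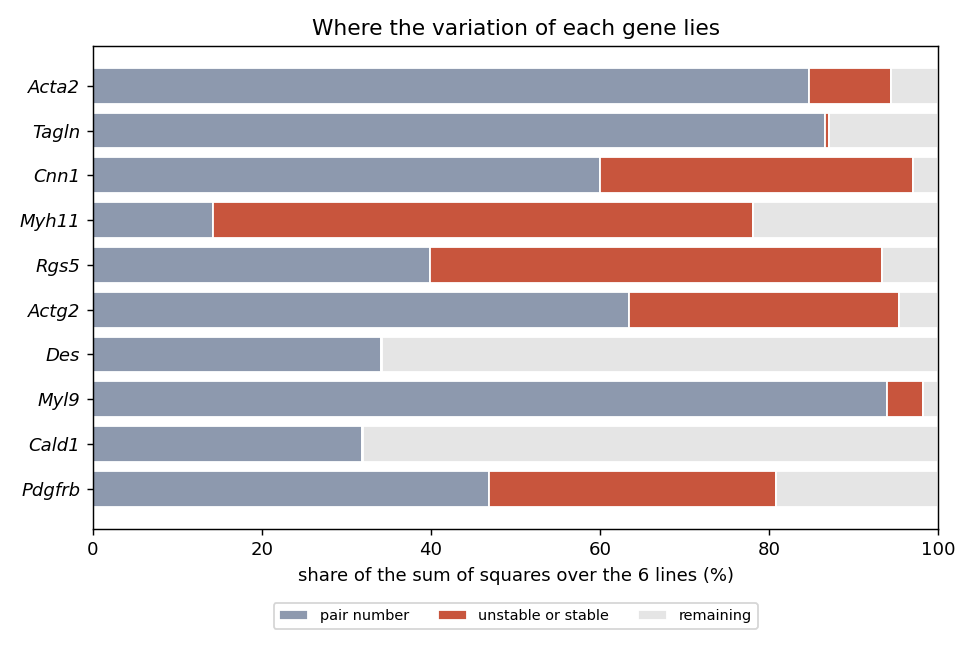
Share in percent of each gene's sum of squares over the 6 lines that goes with the pair number (grey), with the unstable or stable label (red) or with neither (light). Pair number takes 84.7% to 93.9% for Acta2, Tagln and Myl9, and the label takes 63.9% for Myh11 and 53.5% for Rgs5.

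Within the BubR1 lines, where the question is what goes with the hypomorphic BubR1 allele alone, 2 H/H lines were set against 2 +/+ lines. Myh11 differed by 1.35 (SE 0.49), Rgs5 by 1.27 (SE 0.65), Des by 0.53 (SE 0.18), Cnn1 by 0.49 (SE 0.22) and Actg2 by 0.28 (SE 0.13). The other 5 members lay between -0.07 for Acta2 and 0.14 for Myl9. The median over the 10 was 0.21. In limma 0 members and 0 genes (0%) passed, and at an unadjusted p under 0.05 there was 1 member, Des, and 3.15% of all genes (264).

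The CDC20 lines are 1 line a group, so their difference has no replicate check. In that pair Rgs5 was higher by 0.86 and Myh11 by 0.78, Cnn1 by 0.25 and Pdgfrb by 0.23, and Des was lower, at -0.97. Myh11, Rgs5, Cnn1, Actg2, Myl9 and Pdgfrb had the same sign in this pair as in both BubR1 pairs. A test of the BubR1 against the CDC20 effect cannot decide here, since the CDC20 side has 1 line a group. Among the members the effects differed most for Des, by 1.5 (SE 0.32). In pair 10074 the macrophage and leukocyte markers summed to 15.03 in the stable and 14.23 in the unstable line. In pair 9515, where Des was higher by 0.60, they summed to 13.07 and 12.67. In pair 9938, where Des was higher by 0.46, they summed to 14.999 and 15.12. For Myh11 and Rgs5 the effects differed by 0.57 (SE 0.84) and 0.42 (SE 1.12), so that a difference of the size of the effects themselves was within the error.

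The other parts of the contractile apparatus, from a list of 34 genes of which 24 were tested, had 14 higher and 10 lower members and a median of 0.01, beside -0.01 over all genes. Higher in all 3 pairs were 9, beside 16.9% of all genes, and lower in all 3 was 1, beside 19.3%, and 0 passed in limma. All unstable lines lay above all stable lines for 3, beside 3.54% of all genes, and below them for 1, beside 6.41%. That 1 was Actn1, at -0.075 (SE 0.08), and Crip1 was at -0.25 (SE 0.29), both named after their values were seen. Mylk, the kinase that phosphorylates the light chain, measured 11.39, 11.02 and 11.40 in stable and 11.58, 11.61 and 11.46 in unstable lines of pairs 9515, 9938 and 10074. Its groups did not overlap, its difference was 0.28 (SE 0.13), and as for Myh11 the stable line of pair 9938 was the lowest. Itga8, an integrin of smooth muscle, differed by 0.44 (SE 0.23) at levels of 3.41 to 4.50 around the floor, the light chain gene Myl6 by 0.16 (SE 0.11) and the LIM protein gene Csrp1 by 0.17 (SE 0.14).

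The RNA levels of Srf, Mrtfa and Myocd differed less between the groups than those of Myh11 and Rgs5. No activity of these factors was measured. Srf measured 9.44, 9.76 and 9.51 in stable and 9.72, 9.45 and 9.38 in unstable lines, with a difference of -0.05 (SE 0.14; interval -0.39 to 0.28). Mrtfa differed by 0.09 (SE 0.13; interval -0.24 to 0.41). Myocd lay around the floor, at 3.55 to 4.34, with a difference of -0.23 (SE 0.27), and Mrtfb lay below it on all arrays, at 3.00 to 3.37, and was not tested. Of 20 tested genes of the list of Srf cofactors and other targets 9 were higher and 11 lower, with a median of -0.04, and 0 passed in limma. The named genes of this list had both signs: Ankrd1, a nuclear ankyrin repeat protein, was at 0.44 (SE 0.19), the formin gene Fhod3 at 0.71 (SE 0.32), Klf4, known to repress smooth muscle genes, at -0.40 (SE 0.21) and Fos at -0.28 (SE 0.16). Klf4 was below the stable partner in every pair, at 9.68, 9.44 and 9.96 against 9.90, 9.91 and 10.47.

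Other pericyte and mural markers were sparse. Of 20 on the array 8 reached the floor on no array, among them Abcc9 and Higd1b, and 10 were tested, of which 9 were higher and 1 lower over group means, with a median of 0.13; 0 passed in limma. In all 3 pairs only 2 were higher, Notch3 and Mcam, and 1 was lower, and 3 of the 9 lay near 0: Cd248 at 0.006, Foxc1 at 0.01 and Heyl at 0.04. The 1 lower gene was Cspg4, the NG2 proteoglycan of pericytes, which measured 9.37, 9.18 and 9.34 in stable and 9.003, 8.31 and 8.95 in unstable lines. Its unstable lines were all below its stable lines, with a difference of -0.54 (SE 0.20), the opposite sign to Rgs5. Notch3, a receptor of mural cells, was higher in each pair, by 0.25, 0.65 and 0.55, with a mean of 0.48 (SE 0.26). Tbx18 and Mcam differed by 0.27 (SE 0.22) and 0.25 (SE 0.25). The summed level of the list lay at 12.59 to 12.89 in stable and 12.68 to 12.94 in unstable lines.

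The PDGF and TGF-beta pathways act upstream of this program. Of 5 PDGF ligands and receptors tested beside Pdgfrb 3 were higher and 2 lower, with a median of 0.03 and 0 past the test in limma. Pdgfra, the sister receptor, differed by 0.10 (SE 0.24), and Pdgfb, the ligand that recruits pericytes, lay around the floor with -0.21 (SE 0.20). Pdgfd differed by 0.45 (SE 0.64) and Pdgfa by -0.07 (SE 0.24). Of 23 genes of the TGF-beta pathway and its responses 15 were higher and 8 lower, with a median of 0.05, and 0 passed in limma. In all 3 pairs 5 were higher and 3 lower, beside 16.9% and 19.3% of all genes. Those 3, named after their values were seen, were Smad6 at -0.28 (SE 0.35), Ltbp2 at -0.11 (SE 0.21) and Acvrl1 at -0.07 (SE 0.33). Nox4, an oxidase induced in myofibroblasts, measured 9.14, 8.23 and 7.91 in stable and 9.49, 9.11 and 8.91 in unstable lines, higher in each pair, with a difference of 0.74 (SE 0.34). Tgfbi, a matrix protein, differed by 0.35 (SE 0.17), the receptor gene Tgfbr2 by 0.11 (SE 0.10) and Skil by 0.12 (SE 0.11).

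**Figure D5:**
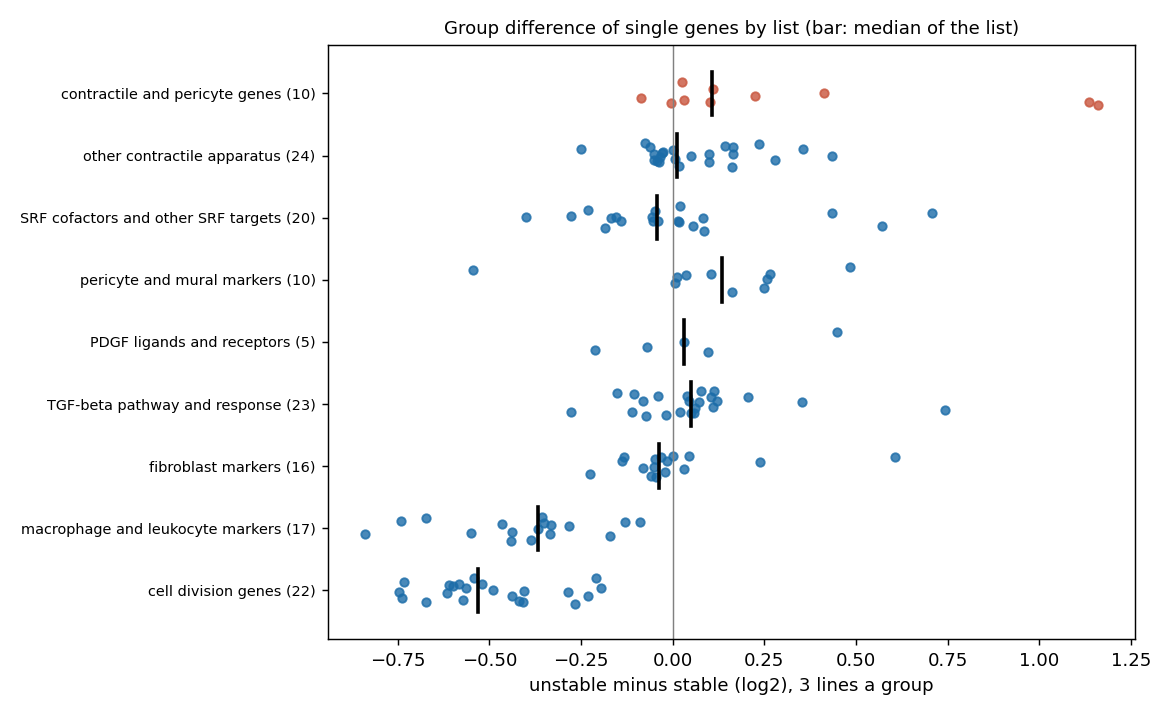
Unstable minus stable difference on the log2 scale of single genes in 9 lists (number of genes tested in brackets), with a black bar at the list's median; vertical scatter within a list only separates the points. The 10 contractile and pericyte genes have a median of 0.11 with Rgs5 and Myh11 apart at 1.14 and 1.16, and the cell division genes have a median of -0.53.

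Cell division genes and macrophage markers also differed between lines. Of 22 cell division genes tested 22 were lower over group means and 21 in all 3 pairs, with a median of -0.53 (-0.20 within pair 9515, -0.64 within 9938 and -0.71 within 10074), and 0 passed in limma; the named ones were Kif20a at -0.67 (SE 0.17), Foxm1 at -0.74 (SE 0.20), Mcm5 at -0.73 (SE 0.23) and Top2a at -0.56 (SE 0.18). Their summed level lay at 15.25 to 15.67 in stable and 14.77 to 15.20 in unstable lines. Macrophage and leukocyte markers, 17 tested of 18 on the array with only Itgam at the floor on no array, summed to 13.07 in the stable and 12.67 in the unstable line of pair 9515, to 14.999 and 15.12 in pair 9938, and to 15.03 and 14.23 in pair 10074. They were thus low in both lines of pair 9515, and 12 of the 17 differed among pair numbers in limma, beside 5.93% of all genes. Between the groups 17 of the 17 were lower over group means and 4 in all 3 pairs, and 0 passed in limma; the named ones were Cx3cr1 at -0.84 (SE 1.06), Csf1r at -0.55 (SE 0.71), Laptm5 at -0.67 (SE 0.92) and Spi1 at -0.28 (SE 0.54). The part of these cells and of cell division in the values of Myh11, Rgs5, Cnn1 and Des was not tested.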

How the data were processed

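RNA of 6 fibroblast cultures was amplified and labelled with NuGEN Ovation kits, per the labels' protocols, and read on 1 Affymetrix array each. The authors used GCRMA 2.28.0 in R 2.15.3, per the submitters' processing notes; the deposited values are on a log2 scale, from 0.922 to 14.393. GCRMA is a method that corrects background by probe sequence and gives near-background probe sets low values with compressed differences. Of 22626 probe sets, 20380 had 1 gene symbol in the platform annotation, 691 had several and 1555 were not listed here. From the values, limma 3.58.1 in R 4.3.3 (lmFit, eBayes, two-sided, Benjamini-Hochberg over all features tested) gave each difference. Values below a log2 level of 4 were taken as near background.

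Deviations from the group mean, correlated across genes, were alike in lines that share a number (r = 0.812, 0.681 and 0.602 for pairs 9515, 9938 and 10074; -0.673 to 0.153 between numbers). The numbers in the titles were therefore taken as pairs when lines were set side by side. The main fit left the pair number out, and the fit with the block was the alternative. An exact permutation test of 3 lines against 3 cannot go below 0.1 and was not used. The members, lists, tests and alternatives were chosen with earlier results of these data known. Named genes were all members, the Srf, PDGF and cofactor genes stated, and up to 4 of each list by p. Any others were named after their values were seen. The scripts were tested on simulated data.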

Additional observations from a re-analysis of the deposited data

Results flagged for a closer look

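Differences of opposite sign in both BubR1 pairs and in the CDC20 pair drew attention to 3 members. Des was higher in both BubR1 H/H lines and lower in the CDC20 AAA/AAA line, and its BubR1 effect minus its CDC20 effect was 1.5. The same quantity was 0.274 for Tagln and -0.18 for Cald1. None of the 3 passed limma's test of that difference, which rests on 1 CDC20 line a group. The second probe set of Des lay below the floor of 4 on all arrays, and the other 2 Cald1 probe sets did not repeat the pattern: 1 was higher in all 3 unstable lines, and the other was higher in both BubR1 H/H lines and lower in the CDC20 AAA/AAA line.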

How the results depend on the processing

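No member passed the unstable against stable test under any alternative (pair number as a replicate block, other filters, mean of probe sets, renormalization, another prior, array weights, each line or pair left out), and the count of genes past it was 0 in each. The smallest adjusted p of a member was 0.262, for Rgs5 with the replicate block. Of 168 member differences under alternatives 146 kept their sign and 22, in 5 members, did not. With the mean of probe sets Acta2 was at 0.013, Des at -0.015 and Cald1 at 0.064; Rgs5 then failed the filter, as it did with the stricter one, and Myh11 was at 0.703. Cald1 was at 0.020 after quantile renormalization and 0.001 after median centring. With a line or pair left out, Acta2 ranged from -0.167 to 0.012, Tagln from -0.075 to 0.191, Des from -0.255 to 0.531, Myl9 from -0.045 to 0.291 and Cald1 from -0.065 to 0.034, and the median over the members from 0.067 to 0.241, highest without the stable line of pair 10074. Myh11 (0.684 to 1.449), Rgs5 (0.658 to 1.444), Cnn1 (0.229 to 0.604), Actg2 (0.124 to 0.355) and Pdgfrb (0.045 to 0.171) kept their sign; the cause of the reversals was not tested. For BubR1 H/H against +/+ the median was 0.143 with the mean of probe sets and 0.154 to 0.236 with a line left out. For differences among pair numbers, an intensity trend with a robust prior gave 4 members and 953 genes; with a line left out there were 0 to 2 members and 1 to 559 genes, the count of 1 arising without either line of pair 9515. With 3 lines a group the intervals above are the limit of what these arrays can show.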
